A study of Mus musculus with 2 samples.

Results

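Elane-high promyelocyte-like cells are the bone marrow cells of this study with much RNA of Elane, the gene of neutrophil elastase, and little RNA of the calprotectin genes S100a8 and S100a9. A cell barcode with at least 500 detected genes and at most 10% of its unique molecular identifiers (UMIs, counted RNA molecules) on mitochondrial genes was taken when Elane stood at 20 or more UMIs per 10000 UMIs of the cell, with S100a8 plus S100a9 below 20. That rule took 1106 of 9632 filtered cells, 507 of 4930 in the KO library and 599 of 4702 in the WT library. The KO group came from Phf6 knockout and the WT group from Phf6 wild-type mouse bone marrow. The cells of both groups carried a vector that encodes GFP and RUNX1-S291fs, a truncated RUNX1 mutant, and had been transplanted. The sequenced cells were GFP-positive and lineage-negative and were sorted from the marrow of recipient mice 8 weeks later. The mutant therefore came from a vector in both groups and not from the Runx1 locus. The sources used here do not give the strain, age or number of mice. With 1 library per genotype there was no test between genotypes, and every interval below is a 95% interval that covers counting error only.

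Promyelocytes are the stage of granulocyte formation at which primary (azurophil) granules are filled. These granules hold the serine proteases elastase, cathepsin G and proteinase 3 together with myeloperoxidase, and their genes are switched on as granulocyte-monocyte progenitors commit. Secondary and tertiary granule proteins, such as lactoferrin and cathelicidin, are made later, when the primary granule genes are switched off. RUNX1, C/EBP factors, PU.1 (an ETS factor) and MYB act at the primary granule genes, and germline mutations of the human elastase gene cause congenital neutropenia. PHF6 is a chromatin protein with PHD-like zinc fingers whose gene is mutated in human myeloid and T cell leukaemia.

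The libraries held 5260 KO and 5287 WT barcodes with 120408100 and 131667969 UMIs. Elane-high cells were deeper than the average cell, with a median of 35341 UMIs in KO and 35237 in WT, against 21982.5 and 25206 over all filtered cells of the same libraries. Of their UMIs, 3.11% in KO and 2.81% in WT were mitochondrial. The libraries shared 10 barcode sequences, and 0 of these marked an Elane-high cell in both. Of the barcodes with the highest doublet scores, taken at a set rate in each library, 20 were among the 507 KO and 28 among the 599 WT cells. The scoring tool's own threshold marked 114 barcodes of the whole KO and 29 of the whole WT library. Levels over summed cells are in CPM, the UMIs of a gene in every 1000000 UMIs. Phf6 itself, on the plus strand of chromosome X (GRCm38, 52912266 to 52956943), had 13.7 CPM in KO and 33.4 CPM in WT Elane-high cells. Its log2 ratio, KO over WT, was -1.29 (interval -1.50 to -1.08). Which part of the gene was deleted is likewise not stated, so a 3′ tag says nothing of the protein. Runx1, counted from the native gene and possibly from the vector, stood at 627 CPM in KO and 567 in WT (log2 ratio 0.14, interval 0.11 to 0.18).

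The other primary granule markers were present in nearly every cell that the Elane rule took. Mpo, the myeloperoxidase gene, had a UMI in 506 of 507 KO and 599 of 599 WT cells, with medians of 50.2 and 49.6 UMIs per 10000. Prtn3, the proteinase 3 gene, had a UMI in every cell of both libraries, with medians of 57.7 in KO and 48.0 in WT. Ctsg, the cathepsin G gene, had medians of 37.9 in KO and 35.7 in WT. Ms4a3, a membrane protein gene switched on in granulocyte-monocyte progenitors, had medians of 9.04 in KO and 9.17 in WT. Elane, which chose the cells, reached 126 with a median of 36.6 in KO, and 209 with a median of 47.8 in WT. So the ranges of all 5 genes overlapped widely between the libraries, and the Elane median was the one that stood furthest apart.

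**Figure D1:**
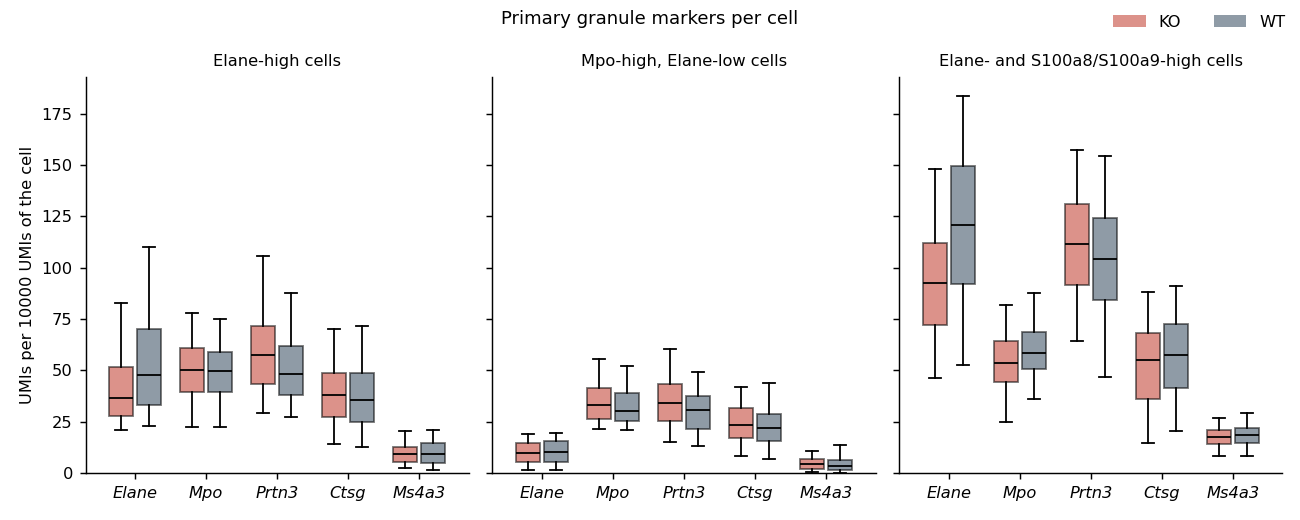
UMIs per 10000 UMIs of the cell for 5 primary granule markers in single cells of the KO (red, left) and WT (grey, right) libraries. Boxes span the quartiles with the median as a line, and whiskers the 5th to 95th percentile, in Elane-high cells and in their neighbouring groups. In Elane-high cells the Elane median is 36.6 in KO and 47.8 in WT, while the Mpo medians are 50.2 and 49.6.

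Cells just inside and just outside the Elane limit had close medians of Mpo and Prtn3, and less so of Ctsg and Ms4a3. Between 20 and 22 Elane UMIs per 10000 there were 36 KO and 21 WT cells with Prtn3 medians of 46.5 and 36.7. Between 18 and 20 there were 44 KO and 39 WT cells with Prtn3 medians of 43.4 and 36.1. The Mpo medians were 38.4 in KO and 33.4 in WT inside the limit, and 37.3 and 33.8 outside it. From inside to outside, the Ctsg median was 31.9 and 24.7 in KO and 20.5 and 23.6 in WT, and the Ms4a3 median 5.14 and 5.64 in KO and 2.38 and 5.07 in WT. Few cells lay near the limit on S100a8 plus S100a9, with 5 KO and 4 WT cells at 18 to 20 and 1 KO cell and 9 WT cells at 20 to 22. Elane UMIs were also found in cells of another kind, and their origin was not tested. After every cell was thinned to 10000 UMIs, 24.9% of KO and 28.6% of WT Pf4-high megakaryocyte-like cells still had an Elane UMI, from unthinned median depths of 22748 and 24747, against 100% of Elane-high cells in both libraries.

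Monocyte RNA was the main departure from the label. The sum of 8 monocyte markers reached 20 UMIs per 10000 in 268 of 507 KO cells (52.9%, interval 48.4 to 57.3) and in 253 of 599 WT cells (42.2%, 38.2 to 46.3). In Elane-high cells the sum ran from 0 to 67.6 with a median of 21.7 in KO and from 0 to 79.2 with a median of 14.9 in WT. Elane-high cells at 20 or more are called monocyte marker-rich here. They are a range of a score and not a cell type, since 94 KO and 84 WT cells lay between 15 and 25, and the limit was set after the values were seen. Of the remaining lists of markers, dendritic cell markers, 2 of which (Cst3 and Bst2) are widely expressed, reached that level in 38 KO and 67 WT cells. Maturing neutrophil markers, which include S100a8, S100a9 and Lcn2, did so in 8 KO and 3 WT cells, early progenitor markers in 3 and 4, and stem cell (HSC/MPP) markers in 2 and 3. Basophil or mast cell, eosinophil, megakaryocyte and erythroid markers each did so in at most 5 KO and 4 WT cells, and plasma cell markers in 0 KO cells and 1 WT cell. B cell and T or NK cell markers did so in 0 of 507 KO and 0 of 599 WT cells, which allows shares of up to 0.592% and 0.501%.

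The monocyte marker-rich cells and the remaining Elane-high cells differed in their fate regulators. The primary granule genes Prtn3, Mpo, Ctsg, Ms4a3 and Nkg7 lay lower in the rich cells to unequal degrees, while Lyz2, given below, lay higher. Gfi1, a repressor that favours granulocyte over monocyte fate, stood at 11.8 CPM in rich and 48.0 in other KO cells, and at 12.3 and 55.02 in WT cells. Cebpe, the C/EBP factor needed for secondary granules, stood at 49.8 in rich and 141 in other KO cells, and at 37.4 and 157 in WT cells. Both were lower in the rich cells of both libraries, and the monocyte side ran the other way. Irf8, a monocyte and dendritic cell regulator that is itself one of the 8 markers, stood at 373 in rich and 98.1 in other KO cells and at 403 and 72.7 in WT cells. Prtn3 stood at 5617 and 6224 CPM in rich and other KO cells and at 4687 and 5334 in WT cells, so it was high on both sides. Mpo did likewise, with 4518 and 5522 in KO and 4129 and 5348 in WT. Rich over other, Ctsg had log2 ratios of -0.46 in KO and -0.67 in WT, Ms4a3 of -0.82 and -1.25, and Nkg7, a granule membrane protein gene, of -4.20 and -3.71.

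Across 8003 genes at 10 CPM or more, 468 were at least 1.5-fold higher (5.85%) and 218 at least 1.5-fold lower (2.72%) in rich cells of both libraries. Chil3, a chitinase-like protein gene, stood at 153 CPM in rich and 5.50 in other KO cells, and at 109.7 and 4.88 in WT cells. Lyz2, the lysozyme gene of monocytes and granulocytes, stood at 2165 and 423 in KO and at 2264 and 334 in WT. It is also on the list of primary granule proteins used below. Lgals3 (galectin 3), Psap, Ctss, Ctsh, Ly86 and Fcer1g, all active in monocytes and macrophages, were higher in rich cells of both libraries by at least 1.94 on the log2 scale. In the other direction, Cd63, a tetraspanin gene of granule membranes, stood at 32.5 in rich and 259.8 in other KO cells and at 45.2 and 445 in WT cells. Wfdc21, which encodes a small WAP-domain protein, stood at 37.6 and 132 in KO and at 9.25 and 103 in WT. Kit, the stem cell factor receptor gene, stood at 41.2 and 91.1 in KO and at 36.8 and 96.1 in WT. The genes of the split were picked after their values were seen, and differences along it partly follow from the markers that made it.

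**Figure D2:**
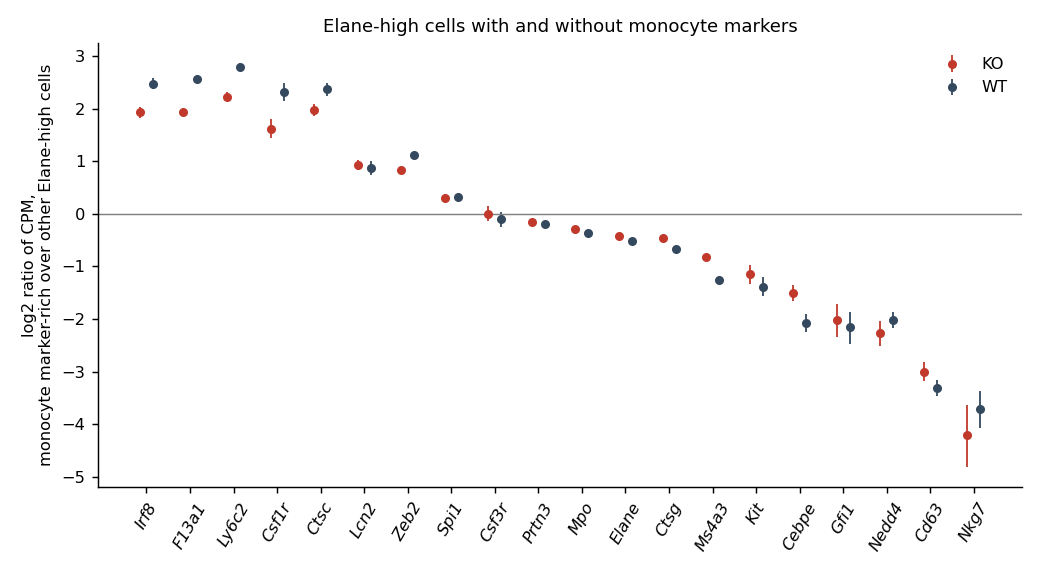
Log2 ratio of CPM, monocyte marker-rich over other Elane-high cells, for 20 genes in the KO (red, left) and WT (grey, right) libraries, with 95% counting intervals. Irf8, F13a1, Ly6c2 and Csf1r are among the markers that made the split, Prtn3, Mpo, Elane and Ctsg lie between -0.67 and -0.15, and Gfi1, Nedd4, Cd63 and Nkg7 lie at -2.02 or below in both libraries.

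The share of Elane-high cells was 10.3% of filtered KO cells (interval 9.45 to 11.2) and 12.7% of filtered WT cells (11.8 to 13.7). The difference was -2.46 percentage points (-3.73 to -1.18), and it is a description, because Elane chose the cells and had itself less RNA per cell in KO. When cells were chosen by Mpo, Prtn3 and Ctsg, together at 100 or more UMIs per 10000 and again with S100a8 plus S100a9 below 20, the share was 12.6% in KO (623 cells) and 12.1% in WT (569 cells). The difference then was 0.536 points (-0.782 to 1.85). That choice was added after the data were seen. In cells so chosen, Elane had a log2 ratio of -0.60 (interval -0.61 to -0.59), beside 0.13 for Prtn3, which was part of the choice. Of 7987 genes, 133 were at least 1.5-fold higher in KO (1.67%) and 79 lower (0.989%), with Lcn2 at 1.16, Hp at 1.01, Nedd4 at -1.38 and Cd63 at -1.15. By Elane level, 282 KO cells lay between 20 and 40 Elane UMIs per 10000, 192 between 40 and 80 and 33 between 80 and 160, against 229, 258 and 111 in WT, with 0 KO cells and 1 WT cell above.

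Elane and Prtn3 are close neighbours, so their unlike ratios concern genes on the same strand of 1 short stretch. Elane lies at GRCm38 chromosome 10, 79886247 to 79888215, and Prtn3 at 79874476 to 79883174, both on the plus strand with 3072 bases between them. In Elane-high cells the log2 ratio was -0.36 (-0.37 to -0.34) for Elane, which the rule used, and 0.22 (0.21 to 0.23) for Prtn3. Ctsg, on chromosome 14 (56099881 to 56102574, minus strand), had a ratio of 0.05 (0.04 to 0.07). The bases 250 to 66 upstream of the 3 RefSeq starts (build GRCm38.p6) are shown. They are part of the promoters of the genes that define the cells and that differed in ratio. Each window lies outside the exons of GENCODE M21, the Prtn3 window within the span of its gene. Capitals mark matches on either strand to a RUNX motif (TGTGGT) or an ETS motif (GAGGAA):
Elane, chr10:79886062-79886246, plus strand: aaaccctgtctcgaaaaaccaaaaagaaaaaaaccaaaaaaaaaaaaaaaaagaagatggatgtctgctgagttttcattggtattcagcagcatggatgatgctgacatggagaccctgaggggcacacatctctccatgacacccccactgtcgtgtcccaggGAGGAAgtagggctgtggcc
Prtn3, chr10:79879417-79879601, plus strand: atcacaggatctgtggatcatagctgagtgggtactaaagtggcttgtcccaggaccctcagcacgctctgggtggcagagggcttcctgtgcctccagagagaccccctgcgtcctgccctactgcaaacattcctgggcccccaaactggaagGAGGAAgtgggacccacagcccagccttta
Ctsg, chr14:56102640-56102824, minus strand: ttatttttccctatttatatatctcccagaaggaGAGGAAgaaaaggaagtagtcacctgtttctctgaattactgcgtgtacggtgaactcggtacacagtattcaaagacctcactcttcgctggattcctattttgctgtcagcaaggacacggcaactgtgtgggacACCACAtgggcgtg
Counted from the RefSeq starts, the ETS motif stood 85 to 80 bases upstream of Elane, 95 to 90 upstream of Prtn3 and 216 to 211 upstream of Ctsg. The RUNX motif, read on the opposite strand, stood 79 to 74 upstream of Ctsg and had no match in the other windows. A C/EBP motif (TTGCNNAA) and a MYB motif (TAACNG) had none in any of them. Bases closer than 66 to the RefSeq starts lay outside the windows and were not searched. Of 32851 promoter windows of the same length, 17.6% held the ETS motif, 10.7% the RUNX motif, 7.62% the C/EBP motif and 15.3% the MYB motif. A match of letters is no site, and the letters say nothing of which factor was bound.

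Most genes had like levels in KO and WT Elane-high cells. Of 8000 genes at 10 CPM or more, taken as the mean of both libraries, 78 were at least 1.5-fold higher in KO (0.975%) and 81 at least 1.5-fold lower (1.01%), together 159 (1.99%). Of these, 41 differed by 2-fold. The whole counting interval lay beyond 1.5-fold for 32 genes above and 45 below. The middle 95% of all log2 ratios ran from -0.38 to 0.40 with a median of 0.01. Genes of antibody-producing and erythroid cells were among those lowest in KO, and the part of such cells or their free RNA was not tested. The 3 of 8 erythroid markers at 10 CPM or more were all at least 1.5-fold lower, and the 8 summed to 22.1 CPM in KO and 96.1 in WT. The haemoglobin gene Hbb-bs had 189 UMIs in KO and 773 in WT cells, of which 232 lay in 1 WT cell. Jchain had 24 UMIs over all KO cells and 1103 over all WT cells, of which 840 lay in 1 WT cell. Igkc stood at 9.56 CPM in KO and 549 in WT. Lcn2 and Hp, in contrast, had no more than 4.92% of their UMIs in the top 5 cells of either library.

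**Figure D3:**
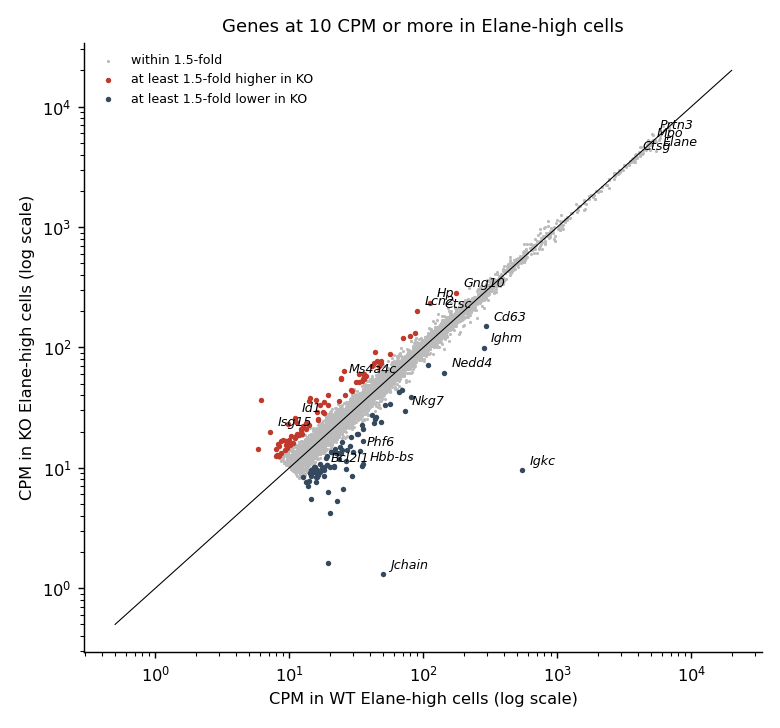
CPM of each of 8000 genes in KO (vertical) and WT (horizontal) Elane-high cells, both on log scales, with the line of equal levels. Red points (78) were at least 1.5-fold higher and blue-grey points (81) at least 1.5-fold lower in KO. Lcn2 and Hp lie above the line, Nedd4, Cd63 and Phf6 below it, and Prtn3, Mpo and Ctsg close to it, while Igkc and Jchain, genes of antibody-producing cells, lie far below.

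Among genes at 100 CPM or more, Lcn2 and Hp were the highest in KO over WT. Lcn2 (chromosome 2, 32384633 to 32388252, minus strand), the gene of lipocalin-2, which binds bacterial iron carriers, stood at 202 CPM in KO and 89.8 in WT, a log2 ratio of 1.17 (1.09 to 1.25). Hp (chromosome 8, 109575128 to 109579172, minus strand), the haptoglobin gene, stood at 234 in KO and 111 in WT (1.07, 1.00 to 1.15). Both were spread over the cells: at 10000 UMIs per cell, 76.0% of KO and 52.6% of WT cells had an Lcn2 UMI, and 84.6% and 56.0% an Hp UMI (94.5% and 84.8%, and 97.6% and 87.3%, unthinned). In Pf4-high cells those thinned shares were 3.73% in KO and 1.68% in WT for Lcn2, and 1.63% and 1.89% for Hp. Gng10, a G protein gamma subunit gene, stood at 285 in KO and 176 in WT (0.69), the octamer factor gene Pou2f2 at 124 and 79.8 (0.63), and the adaptor gene Fyb at 130.5 and 86.4 (0.59). Below 1.5-fold came Ctsc (0.58), the interferon-induced Ifitm3 (0.51), the secreted dermokine gene Dmkn (0.50) and the adaptor gene Apba1 (0.48). The fructose kinase gene Khk (0.43), Ly86 (0.42), whose product pairs with a toll-like receptor homologue, and the interferon-inducible Mndal (0.42) followed. In monocyte marker-rich cells alone Apba1 stood at 334 CPM in KO and 312 in WT, and Ly86 at 276 and 273. In other cells Apba1 stood at 99.1 and 55.2, and Ly86 at 68.0 and 35.7.

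At the other end, Nedd4 and Cd63 were the lowest in KO over WT. Nedd4 (chromosome 9, 72662346 to 72749852, plus strand), which encodes a ubiquitin ligase, stood at 61.5 CPM in KO and 143 in WT (-1.22, -1.32 to -1.12), and 33.1% of KO and 58.5% of WT cells had a UMI at 10000 UMIs per cell. Cd63 (chromosome 10, 128900989 to 128912822, plus strand), whose tetraspanin takes part in the sorting of elastase into primary granules, stood at 149 in KO and 293 in WT (-0.97, -1.04 to -0.91), with a UMI in 40.9% and 61.7% of thinned cells. Of the 12 lowest genes at 100 CPM or more, by the rule that left out antibody genes, these were the 2 at least 1.5-fold lower. The next were the progenitor transcription factor gene Sox4 (97.6 and 142 CPM, -0.54), the potassium channel gene Kcnq5 (-0.53) and the histone gene Hist1h2ac (-0.52). After these came the peroxiredoxin gene Prdx2 (-0.50), the transcription cofactor gene Dach1 (-0.47) and the heat shock gene Hspa1b (-0.46). Then came the tetraspanin gene Cd81 (-0.42), Rdm1 (-0.41), the transporter gene Slco3a1 (-0.39) and the adaptor gene Dapp1 (-0.38). In monocyte marker-rich cells alone Slco3a1 had a ratio of 0.33, and Dach1 stood at 58.3 CPM in KO and 61.1 in WT. In other cells Dach1 stood at 163 and 213.

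The primary granule proteins had a median log2 ratio of 0.03, beside 0.01 over all genes. Of all 8000 genes, 0.975% were at least 1.5-fold higher in KO and 1.01% lower. Of 11 listed genes 9 reached 10 CPM, with Elane, which chose the cells, among the 9. Of the 9, 0 were at least 1.5-fold higher and 1 was as much lower. That 1 was Nkg7, best known from natural killer cells, with 29.8 CPM in KO and 72.6 in WT (-1.28, -1.43 to -1.14). Prss57, which encodes neutrophil serine protease 4, stood at 24.9 in KO and 35.8 in WT (-0.52), and Lyz2 at 1270.1 and 1068 (0.25). Mpo (0.04), Ctsg (0.05) and Ms4a3 (-0.04) had ratios close to 0 whose sign turned in some settings, with ranges of -0.04 to 0.13, -0.04 to 0.25 and -0.19 to 0.37. In cells chosen by Mpo, Prtn3 and Ctsg, the list had 1 of 9 members higher, Lyz2 (0.59), and 4 lower, with a median of -0.19. The 4 were Elane, Nkg7, Prss57 and Prg2. Mpo, Prtn3 and Ctsg, which made that choice, are themselves on the list, so its median partly follows from the choice. Over all 7987 genes of those cells, 1.67% were higher and 0.989% lower. The list's members thus lay on both sides of 0, with the serine protease genes Prtn3 and Prss57 apart from each other.

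Genes that process, pack or inhibit granule proteases had a median of -0.03, with 0 of 16 at least 1.5-fold higher and 1 lower, Cd63. Over all 8000 genes, 0.975% were as much higher and 1.01% lower. Ctsc, which encodes the cathepsin that activates the granule serine proteases, stood at 191 CPM in KO and 128 in WT (0.58, 0.51 to 0.65). Srgn, the gene of the proteoglycan core on which the proteases are packed, stood at 1717 in KO and 1904 in WT (-0.15). Serpinb1a, the gene of an elastase inhibitor, stood at 246 and 302 (-0.29), and Cst7, the cystatin F gene, at 229 and 225 (0.03). Lysosomal hydrolases had a median of 0.11, NADPH oxidase subunits of 0.11 and the genes of congenital neutropenia of -0.05, with 0 members of these 3 lists beyond 1.5-fold in either direction.

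For secondary and tertiary granules the median was 0.40. Of all 8000 genes, 0.975% were at least 1.5-fold higher in KO and 1.01% lower. Of the 8 members that reached 10 CPM, 3 were as much higher and 0 lower. The 3 were Lcn2, Hp and Chil3 (77.1 CPM in KO, 44.8 in WT, 0.78, 0.67 to 0.90). Chil3 was held by few cells, since 32.3% of its KO and 34.8% of its WT UMIs lay in 5 cells. In monocyte marker-rich cells alone Chil3 stood at 153 CPM in KO and 109.7 in WT, and in other cells at 5.50 and 4.88. Both differences were below 1.5-fold, beside the larger share of rich cells in KO. Cybb, the gene of the membrane subunit of the oxidase, stood at 113 in KO and 81.3 in WT (0.48). The classical secondary granule genes were nearly silent: Camp stood at 2.34 CPM in KO and 2.93 in WT, Ngp at 0.652 and 0.497 and Ltf at 0.326 and 0.271, from 43 and 65, 12 and 11, and 6 and 6 UMIs. Their intervals all included 0, so no difference was detectable at this depth. Because S100a8 and S100a9 limited the choice of cells, low values of genes made at the same late stage follow from the rule.

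Interferon response genes had the highest list median, 0.58. Of 28 genes listed 18 reached 10 CPM, all 18 had a positive ratio, 9 were at least 1.5-fold higher in KO and 0 lower. Of all 8000 genes, 0.975% were as much higher and 1.01% lower, and their median ratio was 0.01. Isg15, the ubiquitin-like interferon-stimulated protein gene, stood at 19.99 CPM in KO and 7.22 in WT (1.47, 1.20 to 1.75). Ifi27l2a stood at 40.4 in KO and 19.5 in WT (1.05), and the GTPase gene Igtp at 15.8 and 8.17 (0.95). For MHC class I presentation the median was 0.27, and of the 10 positive ratios among 11 genes 1 was at least 1.5-fold higher: Nlrc5, their transactivator gene (29.2 and 17.8 CPM, 0.72). B2m, the light chain gene, stood at 1118 in KO and 851 in WT (0.39).

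Among myeloid transcription factors, 1 of 19 was at least 1.5-fold higher in KO and 1 lower, beside 0.975% and 1.01% of all 8000 genes. The list median was 0.05. The higher one was Id1, an inhibitor of helix-loop-helix factors, at 26.1 CPM in KO and 10.9 in WT (1.26, 1.03 to 1.49). The lower one was the clock gene Per3, at 10.8 and 17.1 (-0.66). The factors that run the granulocyte programme differed less: Cebpa stood at 39.98 in KO and 37.7 in WT (0.09), Cebpe at 96.6 and 112 (-0.21), Gfi1 at 30.4 and 38.8 (-0.35), Spi1 (PU.1) at 259 and 248 (0.06) and Myb at 345 and 367 (-0.09). In monocyte marker-rich cells alone Cebpe was higher in KO, at 49.8 CPM against 37.4 in WT, while in other cells it stood at 141 and 157. Gfi1 stood at 11.8 in KO and 12.3 in WT rich cells, and at 48.0 and 55.02 in other cells. Cebpb, which acts in emergency granulopoiesis, stood at 144 and 110.4 (0.38) in all Elane-high cells. Hoxa9, a homeobox gene active in stem cells and leukaemia, was below 10 CPM, at 0.652 in KO and 4.42 in WT (-2.76, -3.76 to -1.89).

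Of 17 cytokine and chemokine receptor genes, 2 were at least 1.5-fold higher in KO and 0 lower, beside 0.975% and 1.01% of all 8000 genes. The list median was 0.13. Tgfbr1, a TGF-beta receptor gene, stood at 51.1 CPM in KO and 31.6 in WT (0.70, 0.55 to 0.84). Csf2rb, the shared beta chain gene of the GM-CSF, IL-3 and IL-5 receptors, stood at 88.7 and 56.1 (0.66, 0.55 to 0.77). Csf3r, the G-CSF receptor gene, stood at 91.5 and 78.6 (0.22). For monocyte genes the median was 0.25 and 1 of 13 was at least 1.5-fold higher, Ms4a4c (55.4 and 24.4 CPM, 1.18). Beside this stands the larger share of monocyte marker-rich cells in KO, 52.9% against 42.2% in WT, and within each side of that split the median was -0.10 in rich and 0.61 in other cells. The list shares 8 genes with the markers that made the split. For early progenitor genes the median was -0.24, and 1 of 10 was as much lower and 0 higher. The 1 was the angiopoietin gene Angpt1 (33.3 CPM in KO, 51.9 in WT, -0.64). In rich cells alone the list median was 0.05, with 1 of 10 higher and 0 lower, and in other cells -0.22, with 0 of 10 higher and 2 lower. In rich cells alone Angpt1 had a ratio of 0.39, and in other cells of -0.91.

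The lists of growth and survival differed little. G1/S and G2/M genes both had medians of -0.04, Myc targets and ribosome biogenesis genes both of -0.13, ER chaperone genes of 0.11, glycolysis genes of 0.00, oxidative phosphorylation genes of 0.07 and adhesion genes of 0.13. In these 8 lists 0 members differed by 1.5-fold. Ratios were below 0 for all but 2 of 21 Myc targets and all but 1 of 25 ribosome biogenesis genes, among them Dkc1, the dyskerin gene (122 CPM in KO, 151 in WT, -0.30). BCL2 family genes had a median of -0.10 with 1 of 10 lower, Bcl2l1, the BCL-XL gene (10.2 and 18.1 CPM, -0.83). Over all 8000 genes, 1.01% were at least 1.5-fold lower, and the median ratio was 0.01. For PHF6 and its partner complexes the median was -0.05, and of the 18 genes 1, Phf6, differed by 1.5-fold.

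**Figure D4:**
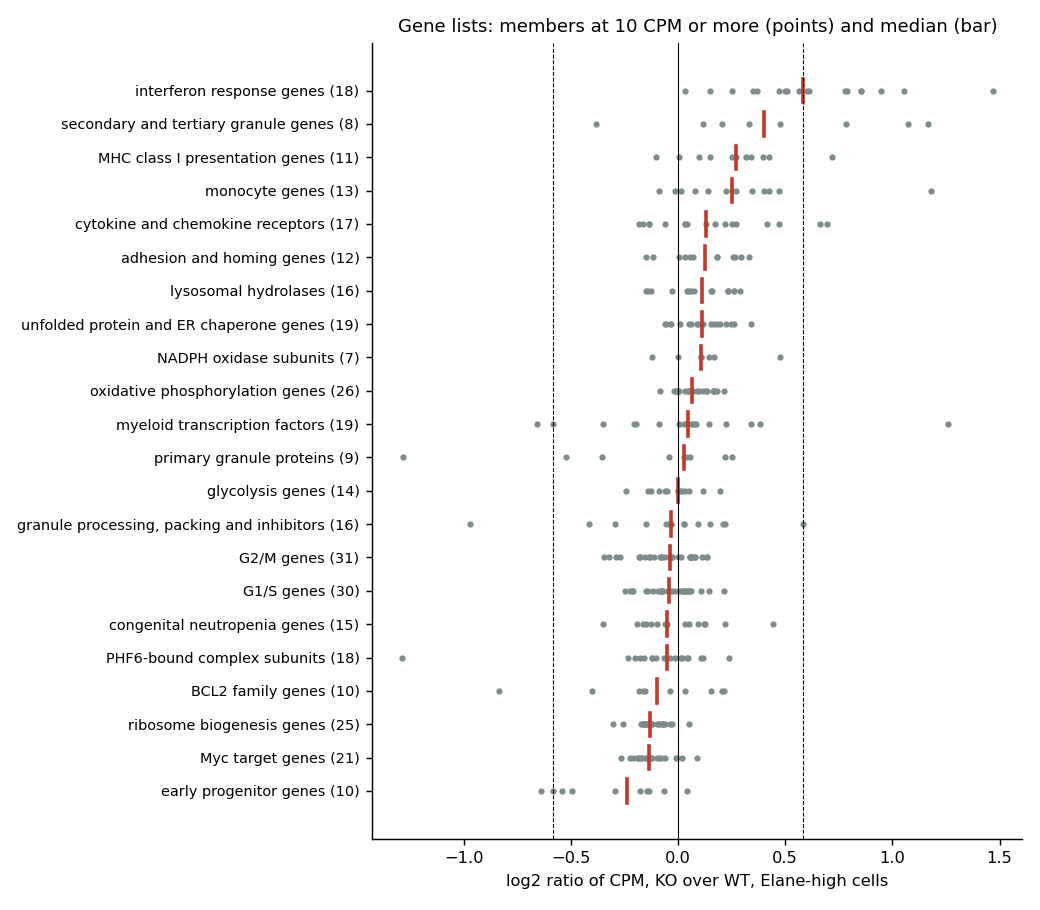
Log2 ratio of CPM, KO over WT, of the members of 22 gene lists in Elane-high cells (grey points, members at 10 CPM or more, their number in parentheses) and the list median (red bar). Dashed lines mark 1.5-fold. The medians run from -0.24 for early progenitor genes to 0.58 for interferon response genes.

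Because KO cells had less Elane, the libraries were also compared at like Elane levels. Prtn3 stood at 5053 CPM in KO and 4003 in WT at 20 to 40 Elane UMIs per 10000, at 6792 and 5237 at 40 to 80, and at 8565 and 7053 at 80 to 160. Lcn2 stood at 211 and 94.97, 194 and 89.0, and 159 and 81.3 at the same levels, and Hp at 221 and 95.2, 248 and 115, and 276 and 138. Nedd4 stood at 43.8 in KO and 103 in WT, 78.5 and 160.2, and 117 and 186. Cd63 stood at 91.8 and 174, 209.8 and 310.5, and 297 and 504. In each case the KO value lay on the same side of the WT value at all 3 levels. That is a description, because the levels were cut on Elane, which itself differed between the libraries. Cells of like Elane level need not be alike in other ways.

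Other genes varied with the Elane level in both libraries. From the lowest to the highest of these levels, the summed monocyte markers stood at 2559, 1678 and 1159 CPM in KO and at 2545, 1555 and 879 in WT. Early progenitor genes stood at 688, 489 and 334 in KO and at 845, 704 and 413 in WT. Gfi1 stood at 19.5, 42.4 and 55.9 in KO and at 19.0, 44.2 and 68.7 in WT, while Irf8 stood at 273, 194 and 82.9 in KO and at 289, 174 and 63.8 in WT. Genes of granule processing stood at 5182, 6538 and 7204 in KO and at 5173, 6382 and 7651 in WT. The 3 levels are ranges of the gene that chose the cells, and the top one held 33 KO and 111 WT cells.

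Each side of the monocyte split was compared between genotypes too. In rich cells 83 of 7969 genes were at least 1.5-fold higher in KO (1.04%) and 83 lower (1.04%). In the other cells 108 of 7935 were higher (1.36%) and 94 lower (1.18%). Lcn2 stood at 267 CPM in KO and 125 in WT rich cells and at 140.1 and 68.4 in other cells, log2 ratios of 1.10 and 1.03. Hp had ratios of 0.87 in rich and 1.19 in other cells, while Nedd4 stood at 20.8 in KO and 49.6 in WT rich cells and at 100.1 and 200.4 in other cells. Cd63 had ratios of -0.48 and -0.78, both smaller than the -0.97 of the whole, beside the unequal shares of rich cells. The interferon list had medians of 0.50 and 0.62, with 7 of 19 and 10 of 17 members higher and 0 lower.

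Elane-high cells were last set beside neighbouring groups. Cells with Mpo at 20 or more per 10000 and with Elane and S100a8 plus S100a9 below 20 (earlier cells) numbered 477 in KO and 297 in WT. Cells with Elane and S100a8 plus S100a9 both at 20 or more (later cells) numbered 300 in KO and 408 in WT. Over earlier cells, 72 of 8122 genes were at least 1.5-fold higher in Elane-high cells of both libraries (0.886%) and 156 lower (1.92%). Over later cells, 709 of 7754 were higher (9.14%) and 210 lower (2.71%). More genes thus differed from the later than from the earlier cells, in groups that Elane, Mpo, S100a8 and S100a9 had cut.

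Several genes differed stepwise over the 3 groups in both libraries. Wfdc21 stood at 4.48, 86.1 and 1757 CPM in earlier, Elane-high and later KO cells and at 3.098, 67.5 and 1174 in WT cells. Pglyrp1, the gene of a granule peptidoglycan-binding protein, stood at 79.7, 205 and 876 in KO and at 88.4, 249 and 779 in WT. Going the other way, Cpa3, a protease gene of progenitors and mast cells, stood at 250.7, 65.1 and 12.4 in KO and at 322, 68.2 and 35.2 in WT. Cd34, a progenitor surface gene, stood at 273, 178 and 20.8 in KO and at 286, 173 and 39.2 in WT. Irf8 stood at 254, 232 and 27.1 in KO and at 285, 198 and 21.3 in WT, so it was low in later cells. Over earlier cells, 9 of 11 early progenitor genes were at least 1.5-fold lower in both libraries, beside 1.92% of all 8122 genes. Over later cells, 12 of 13 monocyte genes were as much higher in both, beside 9.14% of all 7754 genes. Camp stood at 1.91, 2.34 and 886 in KO and at 1.90, 2.93 and 387 in WT.

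The leading KO over WT differences of Elane-high cells were seen in the neighbouring groups as well, and their sizes are given side by side without a test. Lcn2 had log2 ratios of 1.11, 1.17 and 1.53 in earlier, Elane-high and later cells, and Hp of 1.13, 1.07 and 0.89. Nedd4 had ratios of -1.04, -1.22 and -0.42, and Cd63 of -1.40, -0.97 and -0.31. Prtn3 had ratios of 0.20, 0.22 and 0.15 and Elane of -0.08, -0.36 and -0.31, with all 3 groups cut on Elane. In earlier cells 71 of 8204 genes were at least 1.5-fold higher in KO (0.865%) and 72 lower (0.878%), and in later cells 115 of 7460 were higher (1.54%) and 133 lower (1.78%). Secondary and tertiary granule genes had 3 of 8 members higher in earlier, 3 of 8 in Elane-high and 8 of 12 in later cells, with 0 lower in each. Early progenitor genes had 1 of 12, 1 of 10 and 7 of 9 members lower. Interferon response genes had medians of 0.50, 0.58 and 0.51.

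**Figure D5:**
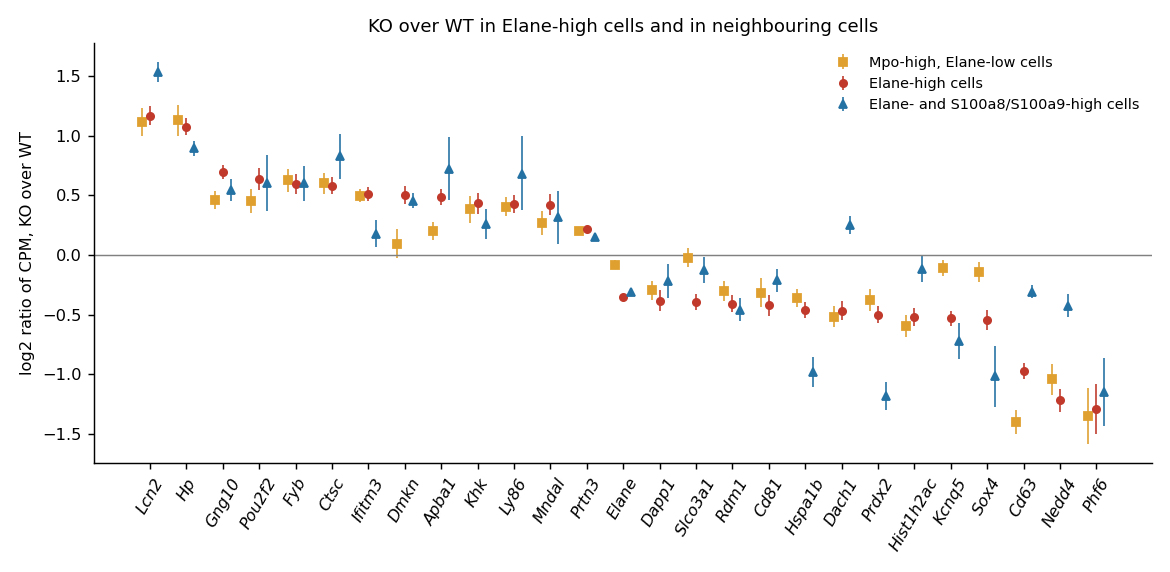
Log2 ratio of CPM, KO over WT, with 95% counting intervals, in 3 groups of cells, for the 24 named genes with the most extreme ratios in Elane-high cells and for Prtn3, Elane and Phf6. Squares show Mpo-high, Elane-low cells, circles Elane-high cells and triangles cells high in both Elane and S100a8/S100a9. Lcn2 and Hp are positive and Nedd4, Cd63 and Phf6 negative in all 3 groups, while Dach1 is negative in 2 groups and 0.25 in the third.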

How the data were processed

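Single-cell RNA libraries of GFP-positive, lineage-negative mouse bone marrow, 1 per genotype, were made with the Chromium Next GEM 3′ kit, per the labels' protocols. The deposited matrices hold raw UMI counts per gene and barcode that the authors made; the matrix headers name Cell Ranger 6.0.2, whereas Cell Ranger 3.0.1 with GRCm38 is what stands in the submitters' processing notes. Nothing had been normalised or annotated by cell type in these files.

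From these counts, cells were filtered and chosen as described above, UMIs were summed per library, and each log2 ratio of CPM has an interval from the exact binomial distribution of a gene's UMIs between the libraries. Shares have exact Clopper-Pearson intervals, their difference a Newcombe interval, and a share of 0 a limit of 3 counts. UMIs of 1 cell or library are not independent samples of mice, and no p-value was computed. A gene was counted at 1.5-fold when at 10 CPM or more. Named genes were Phf6, Runx1 and the 5 markers, the 12 highest and 12 lowest ratios at 100 CPM or more (leaving out genes of the rule, mitochondrial, ribosomal protein, haemoglobin, sex-linked and immune receptor genes and predicted models), up to 4 members of each of 22 lists, and the 12 highest and lowest against each neighbouring group. The cells, the 13 marker lists and the gene lists were chosen with earlier results of these data known, and further genes named from the lists were picked with their values seen. Doublets were kept: Scrublet as carried by scanpy scored them, and an alternative left out 221 KO and 224 WT barcodes with top scores (0.8% for every 1000 barcodes). The ratio and interval calculation was tested on simulated data. Alternatives changed the cell filter, doublets, limits of the rule, scaling (edgeR TMM, median of ratios, totals without the markers), summing, mix of Elane levels, cells rich in monocyte markers, minimum CPM and thinning depth. Tools were Python 3.11.15, numpy 2.4.6, scipy 1.17.1, pandas 2.3.3, scanpy 1.11.5, matplotlib 3.10.9, R 4.3.3 and edgeR 4.0.16. Vector reads were not analysed here.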

Additional observations from a re-analysis of the deposited data

Results flagged for a closer look

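Some barcodes met the Elane and S100a8 plus S100a9 limits and were left out by the cell filter, and they carry signal outside the comparisons above. They numbered 18 in the KO and 27 in the WT library. All 18 of the KO barcodes had more than 10% mitochondrial UMIs. Of the 27 WT barcodes, 25 did so and 4 had fewer than 500 detected genes.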

How the results depend on the processing

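No paired analysis was possible because each genotype had 1 library, and for the same reason no replicate could be left out. The share of Elane-high cells depended most on Elane itself: the KO minus WT difference of -2.46 points was -0.963 (-2.46 to 0.531) with an Elane minimum of 10 per 10000, and 0.536, the opposite sign, with cells chosen by Mpo, Prtn3 and Ctsg. It kept its sign under the 5 other settings tried for it, between -3.31 and -2.40. The count of genes at least 1.5-fold higher in KO was 78 of 8000 (0.975%). It was 14 at a minimum of 50 CPM, 1511 with no minimum, and 133 of 7987 (1.67%) in cells chosen by Mpo, Prtn3 and Ctsg. The count lower, 81, was 9 at 50 CPM and 2014 with no minimum. The minimum sets which genes are counted, so the counts at 50 CPM and with no minimum cover other sets of genes than the 8000. With no minimum, every gene with any UMI in each library was counted. The cause of the other moves was not tested. The Phf6 ratio ran from -1.42 to -1.13. In monocyte marker-rich cells alone, Angpt1 (0.39), Slco3a1 (0.33), Ms4a3 (0.37) and Lyz2 (-0.06) had the opposite sign, and Mpo and Ctsg (both -0.04) did so in cells chosen by Mpo, Prtn3 and Ctsg. The median of early progenitor genes (0.05) and of monocyte genes (-0.10) turned in rich cells too. Over all named genes and settings, 1276 ratios stayed within the counting interval of the first value, 235 left it, and 1 beyond 1.5-fold, Angpt1, changed sign. The choice by Mpo, Prtn3 and Ctsg and the use of monocyte marker-rich cells alone were added after seeing the data. Rescaling by TMM moved every log2 ratio by -0.0046. Depth limited genes below 10 CPM, such as Camp, Ngp and Ltf.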

Other observations

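Further genes at least 1.5-fold apart in Elane-high cells lay between 10 and 100 CPM, and were picked after their values were seen. Siglece, an inhibitory sialic acid receptor gene of myeloid cells, stood at 36.6 CPM in KO and 15.8 in WT (log2 ratio 1.22). Lrg1, a glycoprotein gene of granulocyte differentiation, stood at 24.2 and 11.3 (1.10), and the homeobox cofactor gene Pbx3 at 92.3 and 43.8 (1.07). Camk2d, a calcium-dependent kinase gene, stood at 55.1 and 24.2 (1.19). Lower in KO were Dock1, a Rac activator gene, at 1.63 and 19.4 (-3.57), the cyclin D2 gene Ccnd2 at 38.7 and 80.9 (-1.06), and Vcam1, an adhesion molecule gene, at 6.68 and 25.2 (-1.91).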
